A study of Mus musculus with 12 samples.

Results

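Mmp12 and 7 genes used as markers of splenic red pulp macrophages (C1qa, C1qb, C1qc, Adgre1, Vcam1, Spic and Csf1r) were followed across 12 Affymetrix arrays of mouse spleen dendritic cells (DCs). They are 8 of the 17097 genes measured, with 9 of the 28898 probe sets that carry a single gene symbol. The 8 genes were selected on the KO minus WT differences of these arrays, that of Mmp12 above all, so their genotype differences are given as descriptions with no p-value. Counts of calls among them at an adjusted p under 0.05 are printed only beside the share of all genes, and nothing is supported by either. The groups were miR-142 knockout (KO) DCs with lipopolysaccharide (LPS), KO DCs unstimulated, wild-type (WT) DCs with LPS and WT DCs unstimulated, with 3 arrays each. All mice were 10-week-old male C57BL/6 animals, the WT mice were littermates, and each array held DCs taken by positive selection from 1 spleen. The sources used here do not say how the knockout was made, which surface marker was used for selection, or how much LPS was given and for how long. The sample descriptions speak of T cells, whereas the titles, sources and cell type fields speak of DCs. LPS is a bacterial cell wall component that activates macrophages and DCs through a Toll-like receptor.

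Red pulp macrophages line the blood-filled part of the spleen, engulf aged red cells and recycle their iron. The transcription factor SPIC is needed for them to form, they carry F4/80 (the product of Adgre1) and VCAM1 on their surface, and they depend on the growth factor receptor CSF1R. They make much complement C1q, a protein of A, B and C chains that binds immune complexes and dying cells, but C1q and F4/80 are also made by other macrophages. MMP12, macrophage elastase, is a secreted protease that degrades elastin and is not a defining marker of the red pulp.

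The genotype concerned a microRNA made in blood cells. Its 2 mature strands are shown because their loss defines the KO groups. The sequences are those of RefSeq (GRCm38.p6), at chr11:87756867-87756887 and chr11:87756903-87756925 on the + strand, with capitals marking the seed (bases 2 to 8).

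mmu-miR-142a-5p: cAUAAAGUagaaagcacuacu

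mmu-miR-142a-3p: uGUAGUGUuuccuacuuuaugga

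The labels were set against lists of marker genes, which were written with earlier results of these data known. The DC genes Cd74 and H2-Aa, of antigen presentation and the brightest of 13 measured, averaged 9.89 and 9.49 over the 12 arrays on the log2 scale of the arrays, where the median gene averaged 3.14. Of the 13, Xcr1, a receptor of cross-presenting DCs, fell in KO with LPS (-0.78 ± 0.15, adjusted p = 0.0494 by limma), where 0.17% of all genes were called lower. Without the array named below it was -0.69 (adjusted p = 0.100 by limma). Unstimulated, 0 of the 13 were called (2 at an unadjusted p under 0.05), though Cd4 was called without that array. Here and below, counts at an unadjusted p have no share of all genes beside them, and nothing is read from them. Averaged over stimulation, 3 of the 13 were called lower, where 0.877% of all genes were, and also 3 without that array. The mean level of the 13 was 5.46 to 5.98 in KO LPS and 5.89 to 5.97 in KO unstimulated arrays. It was 6.05 to 6.19 in WT LPS and 5.98 to 6.12 in WT unstimulated arrays. Of 7 measured T cell genes, 3 averaged above the median gene. All 22 measured genes of a list of other red pulp macrophage genes did so, and so did 7 of the 8 genes described here, all but Mmp12. In DCs taken from whole spleen, fewer cells of one kind and less RNA per cell cannot be told apart. One array, KO LPS 2, stood apart. Its correlation with the others over all probe sets but the controls was 0.935 to 0.958. The signal of its Gapdh control probes fell off more towards the middle of the transcript (a difference of 3.04, against 1.53 to 1.86 on the other 11 arrays). Values without it are given beside results that it moved. Markers of other cells also differed between genotypes. The mean level of 13 neutrophil genes was 5.26 to 7.16 in KO LPS and 5.35 to 7.76 in KO unstimulated arrays, against 3.23 to 4.19 in WT LPS and 3.22 to 4.24 in WT unstimulated arrays. That of 9 natural killer cell genes was 5.59 to 5.74 and 5.54 to 5.77 in the same KO groups, against 3.81 to 4.33 and 3.65 to 4.25 in the WT groups. Of these lists, 3 neutrophil and 4 natural killer genes rose in KO in each stimulation by limma at an adjusted p under 0.05, where 0.275% of all genes rose with LPS and 0.205% unstimulated. The neutrophil counts without KO LPS 2 were 2 with LPS and 4 unstimulated. Of 14 monocyte genes, 1 (Chil3) rose in KO with LPS (2 without KO LPS 2) and 2 (Chil3 and Ly6c1) unstimulated, with a mean level of 5.48 to 5.99 in KO LPS and 5.54 to 5.92 in KO unstimulated arrays, against 4.92 to 5.27 in WT LPS and 4.97 to 5.29 in WT unstimulated arrays. The part of these cells in the differences below was not tested.

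Mmp12 was lower in KO than in WT DCs on every array. With LPS, KO arrays 1 to 3 read 1.89, 2.66 and 2.08 log2 units, and WT arrays read 3.93, 3.75 and 4.26. Unstimulated, KO arrays read 1.81, 1.99 and 1.71, and WT arrays read 4.36, 3.54 and 4.31. The highest KO array, KO LPS 2, lay below the lowest WT array, and all KO arrays lay below the median gene while all WT arrays lay above it. Over all genes, 1.19% had all 6 KO arrays below all 6 WT arrays.

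The group means of Mmp12 were 2.21 ± 0.40 in KO and 3.98 ± 0.26 in WT DCs with LPS (SD, n = 3 each). They were 1.84 ± 0.14 in KO and 4.07 ± 0.46 in WT DCs unstimulated. KO minus WT was -1.77 ± 0.24 with LPS, a level 3.42-fold lower, and -2.23 ± 0.24 unstimulated, a level 4.71-fold lower (no detection call was used here, so the folds may be lower bounds, and ± is the moderated standard error from limma throughout). Averaged over both stimulations it was -2.00 ± 0.17. Without KO LPS 2 the difference with LPS was also -2.00. By limma at an adjusted p under 0.05, 1 of the 8 genes, Mmp12, lay past the threshold in each genotype comparison, where 0.17% of all genes were called lower with LPS, 0.0468% unstimulated and 0.877% averaged. In either direction 0.445%, 0.252% and 2.62% of all genes were called in the same order. Mmp12 was chosen on these values, so nothing is read from its count. With LPS the count was 0 without any one of the 3 WT LPS arrays, where 2 to 6 of all genes were called.

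**Figure D1:**
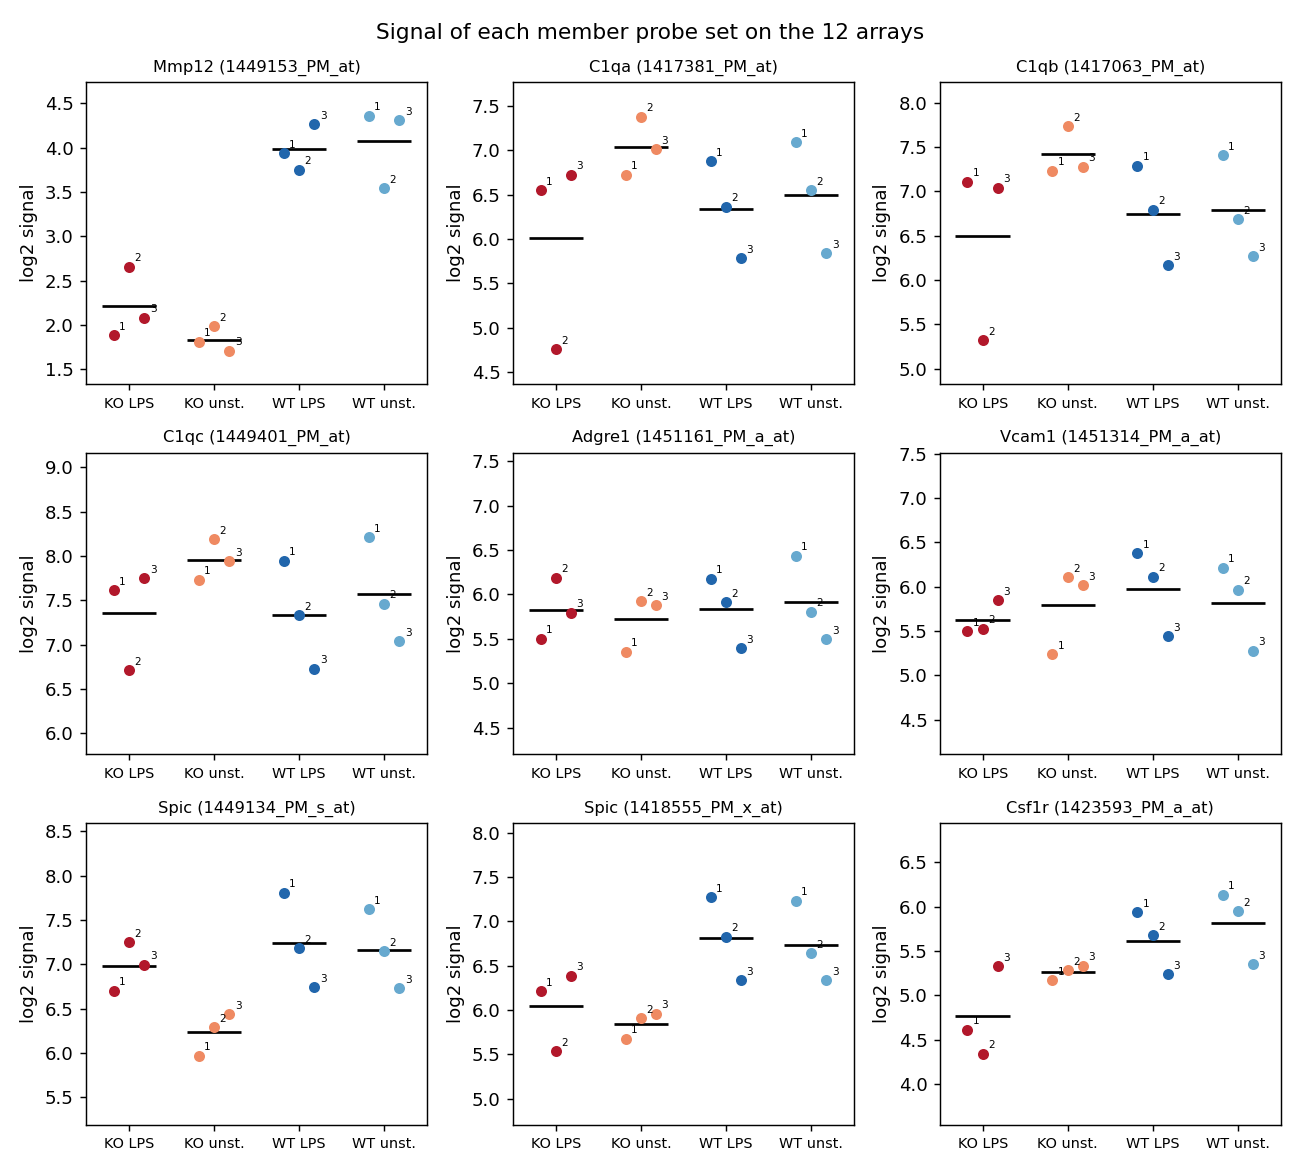
Log2 signal (vertical axes, each gene on its own scale) of the 9 probe sets on the 12 arrays, in KO with LPS, KO unstimulated, WT with LPS and WT unstimulated DCs. Points are arrays with their numbers, and bars are means of 3 arrays. The Mmp12 points form separate KO and WT bands, while the C1q panels show KO LPS 2 far below its group and WT arrays falling in number order.

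Mmp12 lies on chromosome 9 at chr9:7344397-7360461 (GRCm38.p6). The 250 bases before its start are shown because Mmp12 carried the largest genotype difference of the 8 genes, with the C1q chains' below for comparison. Capitals mark the letters GAGGAA, on either strand (TTCCTC), a core of sites of the macrophage factor PU.1. They begin 86 bases before the start.

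Mmp12, chr9:7344147-7344396, + strand: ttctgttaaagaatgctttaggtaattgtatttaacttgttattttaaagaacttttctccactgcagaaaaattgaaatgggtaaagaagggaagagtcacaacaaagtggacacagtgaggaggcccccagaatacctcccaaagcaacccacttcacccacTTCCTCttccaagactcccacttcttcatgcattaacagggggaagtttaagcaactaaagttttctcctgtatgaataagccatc

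RefSeq lists a second Mmp12 start, and the window before it held no such letters. The motif was found in 23.3% of the 32851 windows of 250 bases before all listed starts. It was found in 3 of the 5 member windows counted here, a count from which Csf1r was left out. A match is a run of letters and not a measured binding site.

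No LPS response of Mmp12 passed the test. LPS minus unstimulated was 0.37 ± 0.24 in KO DCs (limma, adjusted p = 0.670) and -0.09 ± 0.24 in WT DCs (limma, adjusted p = 1.00). The difference of the 2 responses, KO minus WT, was 0.46 ± 0.33 (limma, adjusted p = 0.969). Between arrays of the same number, LPS minus unstimulated ran above 0 for all 3 KO numbers and to either side of 0 in WT. Without KO LPS 2 the KO value was 0.15 and the difference of the responses 0.24.

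The genes whose pattern over the 12 arrays was most like that of Mmp12 were Kit (Pearson r = 0.93), Ap5z1 (0.93), Egr2 (0.92), Ubap2l (0.92) and Jchain (0.92), of 8734 candidates whose highest group mean was above the median gene. Jchain, the joining chain of secreted IgM and IgA, averaged 4.79 in KO and 7.84 in WT DCs with LPS, and 3.77 in KO and 7.80 in WT DCs unstimulated. Kit, the stem cell factor receptor, averaged 5.48 in KO and 5.98 in WT DCs with LPS, and 5.23 in KO and 6.05 in WT DCs unstimulated. These correlations describe arrays that share the same 2 genotypes. Without KO LPS 2 the same genes ranked between first (Egr2) and 17 (Jchain).

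The C1q chains overlapped between KO and WT in both stimulations. C1qa, which encodes the A chain, read 6.55, 4.76 and 6.72 on KO LPS arrays 1 to 3, against 6.88, 6.37 and 5.79 on WT LPS arrays. Unstimulated, it read 6.73, 7.38 and 7.01 in KO, against 7.09, 6.55 and 5.84 in WT. KO LPS 2 was the lowest of the 12 arrays and KO unstimulated 2 the highest.

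C1qb, which encodes the B chain, read 7.11, 5.32 and 7.04 on KO LPS arrays, against 7.29, 6.79 and 6.17 on WT LPS arrays. Unstimulated, it read 7.23, 7.74 and 7.28 in KO, against 7.41, 6.68 and 6.27 in WT. KO LPS 2 was again the lowest array and KO unstimulated 2 the highest. C1qc, which encodes the C chain, read 7.62, 6.71 and 7.75 on KO LPS arrays, against 7.95, 7.33 and 6.73 on WT LPS arrays. Unstimulated, C1qc read 7.74, 8.19 and 7.94 in KO, against 8.21, 7.46 and 7.04 in WT. Here KO LPS 2 and WT LPS 3 shared the bottom of the range.

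With LPS, KO minus WT was -0.33 ± 0.47 for C1qa, -0.26 ± 0.44 for C1qb and 0.02 ± 0.35 for C1qc. Unstimulated, it was 0.54 ± 0.47 for C1qa, 0.63 ± 0.44 for C1qb and 0.38 ± 0.35 for C1qc. Without KO LPS 2 the values with LPS were 0.29, 0.33 and 0.34 in the same order, so the sign for C1qa and C1qb rested on that array.

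The size of the LPS difference of the chains in KO DCs also rested largely on KO LPS 2. LPS minus unstimulated in KO was -1.03 ± 0.47 for C1qa (limma, adjusted p = 0.523), -0.92 ± 0.44 for C1qb (limma, adjusted p = 0.546) and -0.60 ± 0.35 for C1qc (limma, adjusted p = 0.642). Without that array it was -0.40 for C1qa, -0.34 for C1qb and -0.27 for C1qc. In WT the values were -0.15, -0.04 and -0.23 in the same order (limma, adjusted p = 1.00 each). The KO LPS arrays of C1qa and C1qb lay wholly below the KO unstimulated arrays, as did those of 7.71% of all genes. For C1qa the margin was very narrow, with 6.725 on KO LPS 3 and 6.727 on KO unstimulated 1.

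The 3 chains followed each other across arrays, apart from KO LPS 2. There C1qc minus C1qa was 1.96, against 0.81 to 1.20 on the other 11 arrays, and C1qc minus C1qb was 1.39, against 0.45 to 0.81. Their genes stand side by side on chromosome 4, within 18719 bases at chr4:136880126-136898844. Across arrays the pairwise correlations were 0.984 to 0.996 over the 6 KO arrays, KO LPS 2 included, and 0.977 to 0.980 over the 6 WT arrays. They describe arrays that share groups. The 250 bases before the C1qb and C1qc starts are shown because these genes moved together, with the same letters in capitals. They begin 30 bases before the C1qb start and 193 bases before the C1qc start used by the sequence table, which lies inside the gene's full span.

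C1qb, chr4:136886201-136886450, - strand: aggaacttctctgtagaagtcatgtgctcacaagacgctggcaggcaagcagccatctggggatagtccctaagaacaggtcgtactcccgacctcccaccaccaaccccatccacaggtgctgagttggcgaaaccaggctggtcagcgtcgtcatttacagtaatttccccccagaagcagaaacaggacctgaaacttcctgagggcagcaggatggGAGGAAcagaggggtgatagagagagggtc

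C1qc, chr4:136892915-136893164, - strand: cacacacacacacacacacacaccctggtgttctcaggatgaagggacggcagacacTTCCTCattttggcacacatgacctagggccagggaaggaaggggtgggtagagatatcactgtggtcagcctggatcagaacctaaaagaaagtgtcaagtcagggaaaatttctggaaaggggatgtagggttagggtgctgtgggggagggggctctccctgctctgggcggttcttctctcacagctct

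The genes most like the mean of the 3 chains were Ctsb (Pearson r = 0.96 over 12 arrays), Tlk1 (0.95), Fcna (0.95), Lgmn (0.95) and Fcer1g (0.95). Ctsb and Lgmn encode lysosomal proteases, and Fcna encodes ficolin A, a secreted lectin. Ctsb, Fcna and Lgmn were also in the list of other red pulp genes. Without KO LPS 2 these 5 genes ranked between 13 (Ctsb) and 57 (Tlk1).

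Adgre1 and Vcam1, the surface markers, overlapped between KO and WT in both stimulations. Adgre1, which encodes F4/80, read 5.50, 6.19 and 5.80 on KO LPS arrays, against 6.18, 5.92 and 5.40 on WT LPS arrays. Unstimulated, it read 5.36, 5.93 and 5.88 in KO, against 6.44, 5.81 and 5.49 in WT. Here KO LPS 2, the lowest array for C1q, was the highest KO array for Adgre1. Its KO minus WT difference was 0.00 ± 0.27 with LPS (-0.18 without KO LPS 2) and -0.19 ± 0.27 unstimulated.

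Vcam1 encodes an adhesion molecule bound by integrin VLA-4. It read 5.50, 5.53 and 5.85 on KO LPS arrays, against 6.38, 6.11 and 5.44 on WT LPS arrays. Unstimulated, it read 5.24, 6.11 and 6.02 in KO, against 6.21, 5.97 and 5.28 in WT. WT array 3 read lowest of the WT arrays in both stimulations. KO minus WT was -0.36 ± 0.29 with LPS (-0.31 ± 0.32 without KO LPS 2) and -0.03 ± 0.29 unstimulated. LPS minus unstimulated in KO was 0.11 ± 0.27 for Adgre1 (limma, adjusted p = 0.944) and -0.17 ± 0.29 for Vcam1 (limma, adjusted p = 0.912), and in WT it was -0.08 and 0.16 (limma, adjusted p = 1.00 each). The KO values without KO LPS 2 were -0.07 for Adgre1, with the sign turned, and -0.12 for Vcam1.

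Spic, which encodes the transcription factor of red pulp macrophages, was lower in unstimulated KO than in unstimulated WT DCs on both of its probe sets. On the probe set with the higher mean, called the first here, KO LPS arrays read 6.70, 7.25 and 7.00, against 7.81, 7.18 and 6.74 on WT LPS arrays. Unstimulated, it read 5.97, 6.29 and 6.44 in KO, against 7.62, 7.15 and 6.73 in WT. The genotypes overlapped with LPS and did not overlap unstimulated.

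On the second probe set KO LPS arrays read 6.22, 5.54 and 6.39, against 7.27, 6.83 and 6.34 on WT LPS arrays. Unstimulated, it read 5.67, 5.91 and 5.96 in KO, against 7.23, 6.64 and 6.33 in WT. The probe sets parted on KO LPS 2, which was the highest KO LPS array on the first and the lowest on the second.

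KO minus WT for Spic was -0.26 ± 0.27 with LPS on the first probe set (-0.39 without KO LPS 2) and -0.76 ± 0.28 on the second (-0.51 on the second without KO LPS 2). Unstimulated, it was -0.93 ± 0.27 on the first, a level 1.91-fold lower, and -0.89 ± 0.28 on the second. Averaged over stimulation, the values were -0.60 ± 0.19 and -0.83 ± 0.20.

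No LPS response of Spic passed the test without a block, though its KO arrays separated by stimulation on the first probe set. LPS minus unstimulated was 0.75 ± 0.27 in KO (limma, adjusted p = 0.382; 0.62 with adjusted p = 0.631 without KO LPS 2) and 0.08 ± 0.27 in WT (limma, adjusted p = 1.00). The KO LPS arrays lay wholly above the KO unstimulated arrays, as did those of 5.75% of all genes, and the WT arrays overlapped. Same-numbered KO arrays differed by 0.73, 0.96 and 0.56. With a replicate block for the array number within genotype the adjusted p from limma was 0.0124, so that the call depended on the pairing, and with that number as a random block it was 0.191. On the second probe set the KO value was 0.20 (limma, adjusted p = 0.871), and 0.45 without KO LPS 2 (adjusted p = 0.759), so the gap between the probe sets was smaller without that array. The difference of the LPS responses, KO minus WT, was 0.67 ± 0.38 on the first probe set (limma, adjusted p = 0.969), and 0.811 was the adjusted p with the replicate block.

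**Figure D2:**
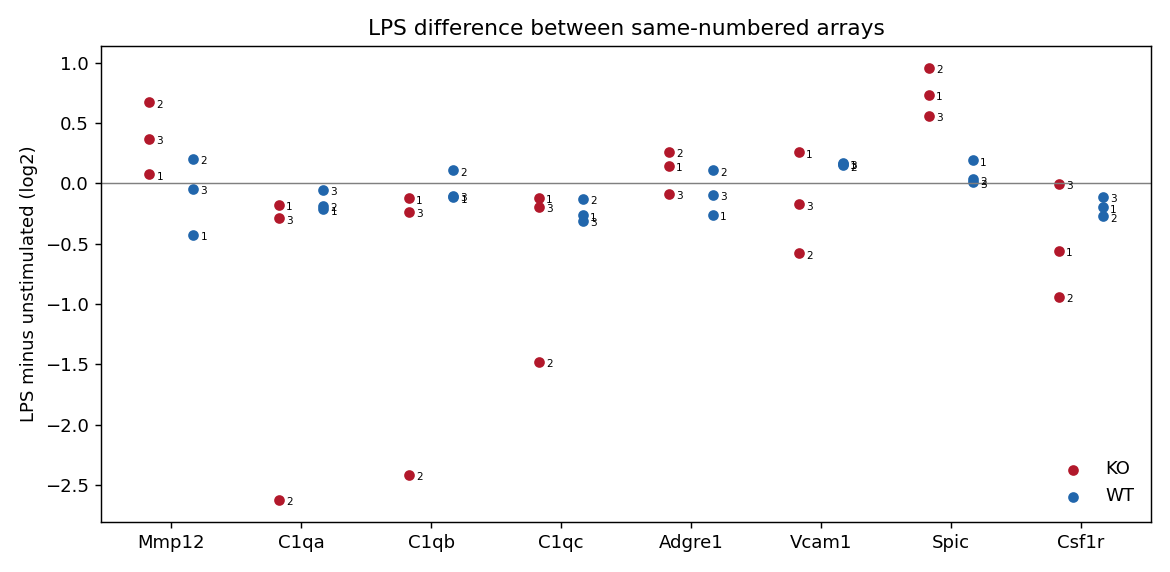
LPS minus unstimulated log2 signal between arrays of the same number (vertical axis) for each gene (horizontal axis), in KO and WT DCs. Points are the 3 numbers of each genotype, which the labels do not state to be the same mouse. KO number 2 lies at -2.62 for C1qa, whereas the WT points stay between -0.43 and 0.20.

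Csf1r, the receptor for the macrophage growth factors CSF1 and IL-34, read 4.61, 4.34 and 5.33 on KO LPS arrays, against 5.94, 5.68 and 5.24 on WT LPS arrays. Unstimulated, it read 5.17, 5.29 and 5.33 in KO, against 6.14, 5.95 and 5.35 in WT. Unstimulated KO and WT arrays did not overlap, by a narrow margin at array 3 of each, and with LPS they overlapped through KO LPS 3. KO minus WT was -0.85 ± 0.26 with LPS (-0.64 without KO LPS 2), -0.55 ± 0.26 unstimulated and -0.70 ± 0.18 averaged. LPS minus unstimulated was -0.50 ± 0.26 in KO (limma, adjusted p = 0.588; -0.29 without KO LPS 2) and -0.20 ± 0.26 in WT (limma, adjusted p = 1.00).

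**Figure D3:**
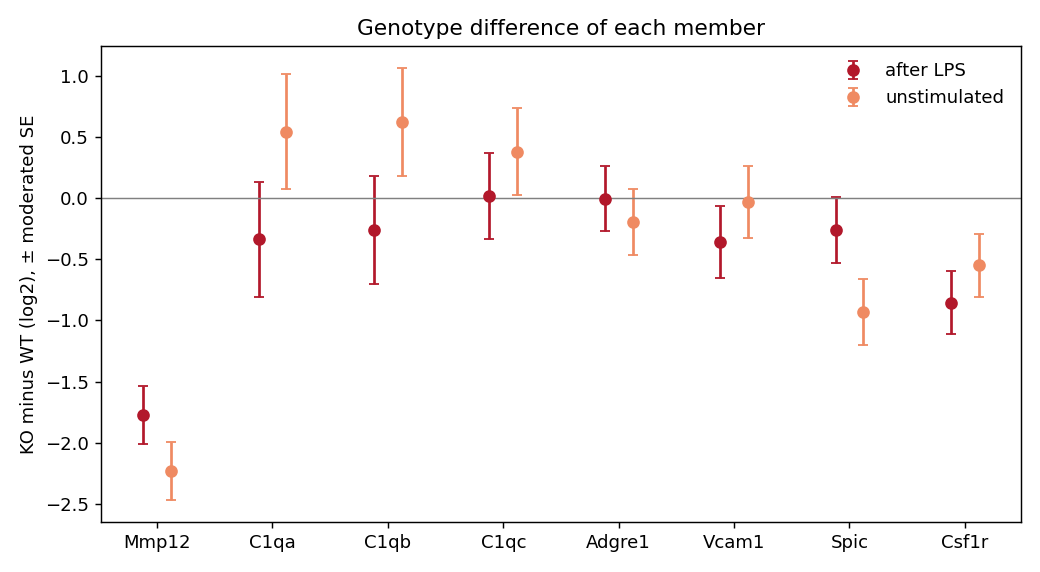
KO minus WT difference in log2 signal (vertical axis) of each gene (horizontal axis), with LPS and unstimulated. Points are differences of means of 3 arrays and bars are moderated standard errors. Mmp12 lies furthest from 0, at -1.77 with LPS and -2.23 unstimulated, and Spic and Csf1r lie below 0 in both stimulations.

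Unstimulated, 3 of the 8 genes (Mmp12, Spic and Csf1r) had all KO arrays below all WT arrays, beside 7.87% of all genes, and 0 had all KO arrays above, beside 8.99%. With LPS the KO arrays lay wholly below for 1 of 8 (Mmp12), beside 10.2% of all genes, and wholly above for 0, beside 6.92%. The median KO minus WT difference of the 8 was -0.30 with LPS and -0.11 unstimulated, against -0.03 and -0.0006 over all genes. These counts follow in part from the choice of genes.

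By limma at an adjusted p under 0.05, LPS called 0 of the 8 genes in KO, where 0.392% of all genes were called, and 0 of 8 in WT, where 0.117% were. At an unadjusted p under 0.05, where the share of all genes was not counted, the counts were 2 in KO and 0 in WT, and nothing is read from them. The difference of the LPS responses called 0 of 8 and 0 of all genes, with 0 of the 8 at an unadjusted p under 0.05. Between same-numbered arrays, LPS minus unstimulated over the 8 genes ran from -2.62 to 0.96 in KO, from -0.56 to 0.73 in KO without number 2, and from -0.43 to 0.20 in WT.

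In WT DCs the 7 genes other than Mmp12 varied together from array to array. Array 1 was the highest and array 3 the lowest for all 7 of them in both WT groups, an order found for 4.68% of all genes and for 13 of the 22 other red pulp genes. Mean levels of erythroid and natural killer markers had the same order. Those of 5 erythroid genes were 5.96, 5.04 and 4.35 on WT LPS arrays 1 to 3 and 5.81, 4.92 and 4.43 on WT unstimulated arrays. Those of the natural killer genes were 4.33, 4.17 and 3.81 and 4.25, 4.18 and 3.65. The mean of the DC genes ran the other way, with 6.05, 6.06 and 6.19 on WT LPS arrays and 5.98, 6.03 and 6.12 on WT unstimulated arrays. Lists of neutrophil, monocyte, T cell, B cell, stromal and platelet genes did not hold the order in both WT groups. The part of these cells in this order was not tested. Over the 6 WT arrays the 21 pairwise correlations among the 7 genes ran from 0.85 to 0.99. Over the 6 KO arrays, KO LPS 2 included, they ran from -0.75 to 1.00. Mmp12 correlated with the 7 genes at -0.88 to 0.78 over the KO arrays and at -0.42 to -0.05 over the WT arrays. KO LPS 2 was the lowest KO array for C1qa and the highest for Adgre1 and Mmp12, and no correlation was computed without it. The KO ranges are therefore not read as a loss of the order seen in WT. Each genotype has 6 arrays from 2 groups, and these values are descriptions.

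The C1q chains were also set against Spic and Csf1r within each array. The mean of the 3 C1q chains minus Spic was 0.39, -1.65 and 0.18 on KO LPS arrays, against -0.44, -0.35 and -0.51 on WT LPS arrays. Unstimulated, it was 1.26, 1.48 and 0.97 in KO, against -0.05, -0.25 and -0.35 in WT. All KO arrays except KO LPS 2 lay above all WT arrays. KO minus WT was 0.07 with LPS (0.71 without KO LPS 2) and 1.45 unstimulated, and with the second Spic probe set it was 0.57 (0.83 without KO LPS 2) and 1.41.

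The mean of the C1q chains minus Csf1r was 2.48, 1.25 and 1.84 on KO LPS arrays, against 1.44, 1.16 and 0.99 on WT LPS arrays. Unstimulated, it was 2.06, 2.48 and 2.08 in KO, against 1.43, 0.95 and 1.04 in WT. Again all KO arrays except KO LPS 2 lay above all WT arrays. KO minus WT was 0.66 with LPS (0.97 without KO LPS 2) and 1.07 unstimulated. A difference between probe sets on 1 array has no meaning as a level, so only its change between arrays is given, and it uses the genotype values that chose the genes.

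**Figure D4:**
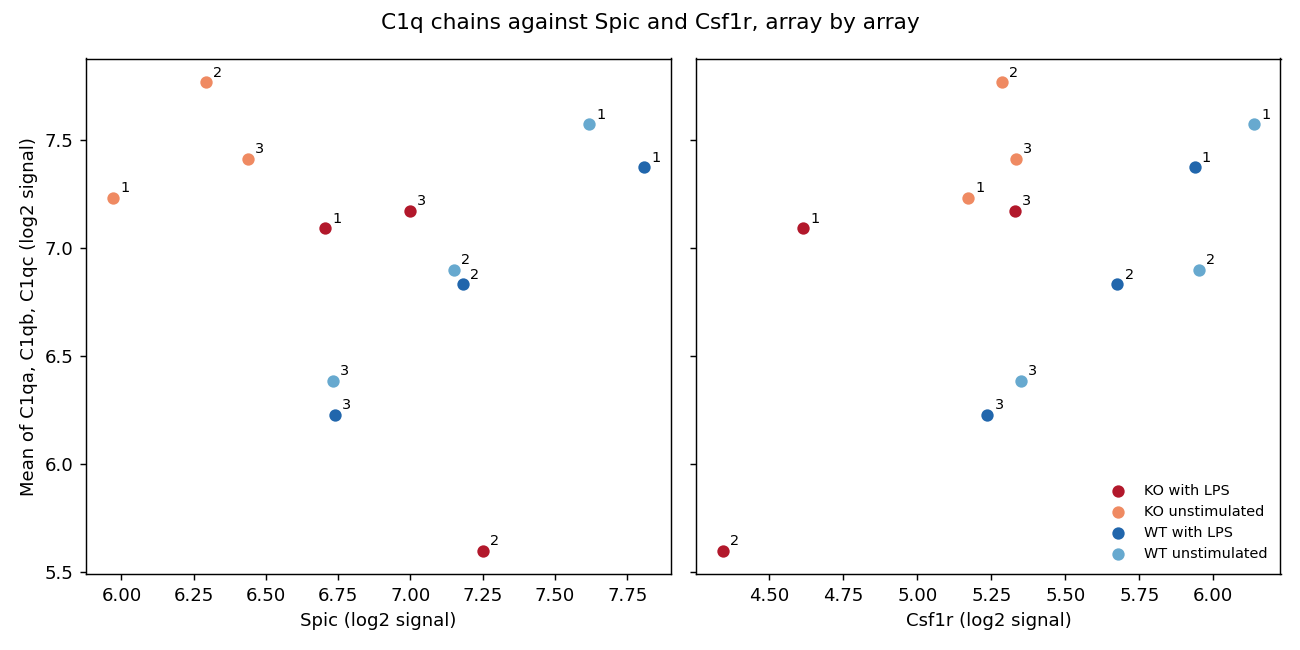
Mean log2 signal of C1qa, C1qb and C1qc (vertical axis) against that of Spic (left) and Csf1r (right) on the 12 arrays, with array numbers. Points are single arrays of KO and WT DCs with LPS and unstimulated. The WT arrays rise together on both axes, the KO arrays other than KO LPS 2 lie above or to the left of them, and KO LPS 2 lies at the bottom with a C1q mean of 5.60.

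Within either stimulation no gene of a wider red pulp list was called lower in KO. Of 22 other red pulp macrophage genes, 0 were called with LPS in KO against WT by limma at an adjusted p under 0.05 (3 at an unadjusted p under 0.05), and 1 rose and 0 fell unstimulated, where 0.205% and 0.0468% of all genes did. Averaged over stimulation 1 rose and 0 fell, where 1.74% and 0.877% did, and without KO LPS 2 Bach1, a heme-responsive repressor, was called lower as well (-0.31, adjusted p = 0.0278 by limma). Their median KO minus WT difference was -0.05 with LPS (0.10 without KO LPS 2) and 0.17 unstimulated. The gene that rose was Il18bp, which encodes a secreted binder of interleukin 18. It read 5.80, 4.94 and 5.42 on KO LPS arrays, against 4.74, 4.42 and 4.61 on WT LPS arrays. Unstimulated, it read 5.73, 6.39 and 5.96 in KO, against 5.08, 4.60 and 4.18 in WT. KO arrays lay wholly above WT arrays in each stimulation, as did those of 6.92% of all genes with LPS and 8.99% unstimulated. Il18bp differed by 1.41 ± 0.25 unstimulated (limma, adjusted p = 0.0452) and by 1.10 ± 0.18 averaged over stimulation (limma, adjusted p = 0.00777). The unstimulated call was kept in 3 of 12 fits that left out 1 array each and the averaged call in 12 of 12.

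Among red pulp genes not called, Fth1, the ferritin heavy chain, differed by 0.16 in both stimulations, and Ctsb by -0.22 with LPS (0.12 without KO LPS 2) and 0.12 unstimulated. Of the 22 genes, 10 had a positive and 12 a negative KO minus WT difference with LPS, and 16 and 6 unstimulated. The mean level of the 22 genes was 6.52 to 6.95 in KO LPS and 6.90 to 7.34 in KO unstimulated arrays, against 6.37 to 7.11 in WT LPS and 6.40 to 7.30 in WT unstimulated arrays, so that the groups overlapped. LPS called 0 of them in KO (3 at an unadjusted p under 0.05) and 0 in WT (0 at an unadjusted p under 0.05) by limma, with medians of -0.35 (-0.20 without KO LPS 2) and -0.07.

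Of 8 marginal zone macrophage genes, 0 were called in KO against WT within either stimulation (2 with LPS and 1 unstimulated at an unadjusted p under 0.05, limma). Averaged over stimulation 1 fell, where 0.877% of all genes did. It was Cd209a, a lectin also found on monocyte-derived cells, with -1.07 ± 0.25 (limma, adjusted p = 0.0418, kept in 5 of 12 fits without 1 array). Cd209a is thus not particular to these macrophages, and the averaged difference was positive for 5 and negative for 3 of the 8 genes.

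No other matrix metalloproteinase gene was called lower in KO, though Mmp19 was also lower. All 6 KO arrays of Mmp19 lay below all 6 WT arrays, by a narrow margin, as in 1.19% of all genes. Its KO minus WT difference was -1.07 ± 0.32 with LPS, -0.66 ± 0.32 unstimulated and -0.86 ± 0.22 averaged (limma, adjusted p = 0.0639 averaged). The averaged difference was positive for 10 and negative for 9 of the genes in this list. Of 19 measured genes for metalloproteinases, related proteases and their inhibitors, 0 were called within either stimulation by limma. At an unadjusted p under 0.05 the counts were 6 with LPS and 5 unstimulated, with no share of all genes to set them against. Averaged over stimulation, 3 rose (4 without KO LPS 2, with Mmp14) and 1 fell, where 1.74% and 0.877% of all genes did. Mmp8 and Mmp9, proteases also in the neutrophil list, rose by 3.20 ± 0.70 (adjusted p = 0.0342) and 2.79 ± 0.61 (adjusted p = 0.0344), each kept in 3 of 12 fits without 1 array. Timp2, an inhibitor of metalloproteinases, rose by 0.59 ± 0.11 (adjusted p = 0.0164, kept in 11 of 12). The shedding protease gene Adam8 was the 1 that fell, by 0.73 ± 0.15 (adjusted p = 0.027, kept in 4 of 12), with each adjusted p from limma.

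The Mmp9 arrays split within KO. Mmp9 read 6.88, 7.44 and 4.19 on KO LPS arrays, against 3.54, 4.15 and 2.88 on WT LPS arrays. Unstimulated, it read 7.21, 7.68 and 4.29 in KO, against 3.51, 3.72 and 3.14 in WT. KO array 3 was the lowest KO array in both stimulations, and Mmp8 showed the same order at array 3, with 2.59 in KO LPS and 3.05 in KO unstimulated. Mmp12 had no such split.

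Of 14 other complement genes, 0 were called in KO against WT by limma in either stimulation (1 with LPS and 4 unstimulated at an unadjusted p under 0.05). Calr, a chaperone that binds C1q, differed by -0.41 with LPS (-0.14 without KO LPS 2) and 0.17 unstimulated, and Itgb2, a chain of complement receptors, by -0.06 and 0.23. Of 18 genes of the CSF1R axis and macrophage transcription factors, which include Csf1r, 0 were called in KO against WT. At an unadjusted p under 0.05 the counts were 6 with LPS and 2 unstimulated. As for the complement list, no share of all genes was counted to set these against. Tyrobp, a signalling adaptor, differed by 0.23 with LPS and 0.29 unstimulated, and Csf2rb, a cytokine receptor chain, by -0.19 (-0.40 without KO LPS 2) and -0.18. LPS minus unstimulated for Csf2rb was -0.59 in KO (limma, adjusted p = 0.212) and -0.59 in WT (limma, adjusted p = 0.494). Without KO LPS 2 Csf2rb was called lower in both genotypes, by limma at -0.81 in KO (adjusted p = 0.00524) and -0.59 in WT (adjusted p = 0.0294). In that fit Irf4 was called higher with LPS in KO (1.28, adjusted p = 0.00392 by limma). Averaged over stimulation, 0 of the 18 were called in KO against WT with all arrays. Without KO LPS 2, limma called Irf8 (0.40, adjusted p = 0.0211) and Tfec (0.65, adjusted p = 0.0294) higher and Cbl (-0.36, adjusted p = 0.0401) lower. In that fit 633 of 17097 genes were called.

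LPS itself registered on an adhesion gene related to Vcam1. Of 11 genes for VCAM1 and ICAM1 ligands and relatives, 1 rose with LPS in KO by limma, where 0.392% of all genes were called in either direction. In WT 0 were called (1 at an unadjusted p under 0.05), where 0.117% of all genes were. The gene was Icam1, the integrin ligand induced on activated cells. Icam1 read 8.52, 8.21 and 8.56 on KO LPS arrays, against 7.32, 7.70 and 7.42 on KO unstimulated arrays. In WT it read 8.37, 8.53 and 8.53 with LPS, against 7.73, 7.62 and 7.82 unstimulated. LPS arrays of Icam1 lay wholly above unstimulated arrays in both genotypes, beside 5.75% of all genes in KO and 11.9% (either direction) in WT. LPS minus unstimulated was 0.95 ± 0.13 in KO (limma, adjusted p = 0.00556) and 0.76 ± 0.13 in WT (limma, adjusted p = 0.0567; 0.0117 without KO LPS 2, so that it was called in WT too), and the difference of the responses was 0.19 ± 0.18 (limma, adjusted p = 0.969).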

How the data were processed

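RNA from spleen DCs was amplified with oligo(dT) and random primers and hybridised to 12 Affymetrix arrays, per the labels' protocols. The authors deposited log2 values normalised with RMA, per the submitters' processing notes, and the sources used here do not give the RMA version. Of 45141 probe sets, 104 controls, 551 with several symbols and 15588 without a symbol in the annotation used were left out. Each of the 17097 genes was represented by its brightest probe set, with no filter on dim genes, and a second fit held all 28898 probe sets with 1 symbol.

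Group means were fitted with limma 3.58.1 in R 4.3.3 (lmFit and eBayes, 8 residual degrees of freedom), with Benjamini-Hochberg adjustment over all genes and calls at 0.05. Symbols came from platform annotation, and 28689 probe sets matched RefSeq. The fit was tested on simulated data. Counts of genes at an unadjusted p under 0.05 have no share of all genes beside them, since none was counted. That share can lie above the threshold itself in these comparisons, so the counts show no excess in any list. The members and gene lists were chosen with earlier results of these data known. The genotype calls on list genes, and the number of fits that kept them, are therefore descriptions too. Named were all members and the 5 genes most like Mmp12 or the C1q mean. Per list, up to 3 called genes with the largest difference were named. Where fewer than 2 were called, up to 2 uncalled genes with the highest mean were named. Mmp19 was named as well for the order of its arrays, and so were some genes called only without KO LPS 2.

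The labels do not say that array numbers pair mice. Deviations from the group means correlated between same-numbered arrays at 0.305, 0.284 and 0.440 within KO and 0.385, 0.230 and 0.422 within WT, all above 0.1, so numbers were treated as pairs within a genotype in an alternative fit. Across genotypes the values were 0.012, 0.090 and 0.189 with LPS and -0.009, 0.091 and 0.221 unstimulated, and were not so treated. Other alternatives were other probe set rules, a filter on dim genes, 2 normalisations, another variance model, only the arrays compared, random (statmod 1.5.0) and fixed blocks, and leaving out each array. The 3 arrays per group limit the precision. Mir142 was not analysed here, and no check of the genotype labels was made with it.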

Additional observations from a re-analysis of the deposited data

How the results depend on the processing

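Over the alternatives, 1061 single values of the members kept their side of the threshold, 5 gained a call and 4 lost one. In 44 values, none called and none over 0.334 in size, the sign differed. Mmp12, KO minus WT, ran from -2.00 to -1.61 with LPS and from -2.50 to -2.09 unstimulated. The number of members called unstimulated was 1 throughout, while 5 to 170 of all genes were called. With LPS it was 0 in a fit of only the 6 arrays compared, where 0 of all genes were called, and 0 to 2 without 1 array. It was 0 without any one of the WT LPS arrays, where 2 to 6 of all genes were called. Without KO LPS 3 it was 2, with Csf1r, where 358 of all genes were called, against 76 in the main fit. Averaged, it was 2 after quantile normalisation, where 479 of all genes were called, against 448 in the main fit. It was 1 to 2 without 1 array, with Csf1r again added without KO LPS 3, where 826 of all genes were called. Nothing about the members is read from these shifts. LPS in KO called 1 (Spic) with the replicate block within genotype, where 148 of all genes were called, against 67 in the main fit. For the second Spic probe set the averaged difference was -0.70 without KO LPS 2, in a fit chosen after seeing the data. The block within genotype could not be fitted for genotype comparisons, since each number lies in 1 genotype.

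Of 91 genes in the 6 neighbouring lists, the number called unstimulated was 1, but 0 in the fit of all probe sets, with the mean of a gene's probe sets and with median centring, 4 with a replicate block over all arrays, and 0 to 3 without 1 array. In the same order, 43 of all genes were called in the main fit, 170 with that block and 5 to 166 without 1 array. With LPS the number in the lists was 0, but 3 with that block and 0 to 6 without 1 array. There 76, 280 and 2 to 358 of all genes were called. Averaged it was 6, but 14 with that block and 1 to 11 without 1 array (11 without KO LPS 2, 10 without KO LPS 3). There 448, 878 and 186 to 826 of all genes were called (633 without KO LPS 2, 826 without KO LPS 3). LPS in WT called 0, but 1 with the mean of probe sets, with only the arrays compared and with the random replicate block, and 0 to 2 without 1 array. There 20, 31, 56, 48 and 4 to 67 of all genes were called. LPS in KO called 1, but 2 with the mean of probe sets, 0 with only the arrays compared, and 1 to 3 without 1 array. There 67, 80, 13 and 37 to 98 of all genes were called. The cause of these shifts was not tested.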
